A study of Rattus norvegicus with 20 samples.

Results

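The genes described here encode the respiratory chain and ATP synthase of the mitochondrial inner membrane, measured in the livers of rats on 4 diets. They were taken by symbol: every probe set with a single platform gene symbol beginning with Nduf, Uqcr, Cox4 to Cox8 or Atp5, or equal to Sdha, Sdhb, Sdhc or Sdhd. This gave 96 probe sets of 86 genes, out of 14217 genes on the array with a probe set of their own. A log2 value above 4 on at least 5 of the 20 arrays was required, and each gene was represented by its probe set with the highest mean. Of the 86 genes 77 passed, out of 7837 on the whole array: 37 of 40 for complex I, 4 of 4 for complex II, 7 of 7 for complex III, 13 of 19 for complex IV and 16 of 16 for complex V. The symbol rule also takes genes that are no subunit. Among the 77 these were 4 complex I assembly factors (Ndufaf3, Ndufaf4, Ndufaf5 and Ndufaf8), Atp5if1, Cox7a2l and the pseudogene Cox6c-ps1, which left 70 subunits. Ndufa4 was counted with complex IV, where its protein is now placed.

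Complexes I to IV pass electrons from NADH and succinate to oxygen. All of these but complex II pump protons, and complex V uses the proton gradient to make ATP. Most subunits are encoded in the nucleus and are made in step with a few encoded in mitochondrial DNA. Liver carries the general isoforms of subunits that have muscle forms, and factors such as NRF-1, YY1 and the ETS-type factor GABP are known to bind promoters of these genes.

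The rats were female Sprague Dawley animals, 5 per diet, and liver RNA of each was hybridized to 1 Affymetrix array after 24 days. Control rats ate the Harlan Teklad mash diet without supplement. The other groups ate diet with 5,6-benzoflavone (BNF), an agonist of the dioxin receptor AhR, at 1650 mg per kg, with 3H-1,2-dithiole-3-thione (D3T, the parent dithiolethione) at 600 mg per kg, or at 500 mg per kg with oltipraz (OLT), which is D3T with an added methyl group and an added pyrazinyl ring. Dithiolethiones are known as activators of the transcription factor Nrf2. The 2 dithiolethiones were given at different doses, so a difference between them is one between these diets. The animals' age is not given in the sources used here.

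Whole liver was measured, so fewer cells of a type and less RNA per cell cannot be told apart. Of 8 hepatocyte markers 7 were on the array and all 7 passed, with a summed level between 17.57 and 18.07 (log2) on every array. The arrays labelled D3T 5 and OLT 1 resembled the other dithiolethione group more than their own: D3T 5 had a mean correlation of 0.968 with D3T arrays and 0.979 with OLT arrays, and OLT 1 had 0.963 with OLT arrays and 0.966 with D3T arrays. Counts for D3T and OLT are therefore also given without D3T 5 and OLT 1. Both were picked by their values here, so leaving them out sets D3T and OLT apart by construction. OLT 5 also correlated less with OLT arrays (0.965) than with control (0.970) or BNF arrays (0.968). It was left out only singly. The labels give no batch. Precision is limited by the 5 arrays per group.

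The promoters of 4 members on which the results turn are given here, each from 250 bases before to 50 bases after the RefSeq start (build GRCr8). They are Cox8b, which left background on BNF, its general isoform Cox8a, Atp5if1, which had the largest difference on D3T, and Ndufa6, which was called lower in each comparison with control. All 4 lie on the minus strand and are written 5′ to 3′ along the gene, at chr1:205408224-205408523 (Cox8b), chr1:213833574-213833873 (Cox8a), chr5:150026628-150026927 (Atp5if1) and chr7:115750268-115750567 (Ndufa6). Capitals mark matches on either strand to any of 6 motifs. The ETS motif was searched as CCGGAAG. The letters for YY1 were AAGATGG. The TATA box was searched as TATAAA. The core bound by AhR is GCGTG. For the antioxidant response element, bound by Nrf2, the search used TGACNNNGC. The last motif was the NRF-1 palindrome.
Cox8b: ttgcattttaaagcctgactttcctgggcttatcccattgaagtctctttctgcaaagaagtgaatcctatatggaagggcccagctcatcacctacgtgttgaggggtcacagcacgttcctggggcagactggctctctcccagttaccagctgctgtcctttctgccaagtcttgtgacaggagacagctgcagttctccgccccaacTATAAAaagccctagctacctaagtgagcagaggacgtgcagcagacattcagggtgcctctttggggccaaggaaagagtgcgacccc
Cox8a: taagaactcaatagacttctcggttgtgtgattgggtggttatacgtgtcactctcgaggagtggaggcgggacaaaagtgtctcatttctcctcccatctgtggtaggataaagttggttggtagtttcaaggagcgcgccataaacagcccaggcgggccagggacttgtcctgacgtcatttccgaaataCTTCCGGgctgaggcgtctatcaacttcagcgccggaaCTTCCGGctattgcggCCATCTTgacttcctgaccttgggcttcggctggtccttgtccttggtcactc
Atp5if1: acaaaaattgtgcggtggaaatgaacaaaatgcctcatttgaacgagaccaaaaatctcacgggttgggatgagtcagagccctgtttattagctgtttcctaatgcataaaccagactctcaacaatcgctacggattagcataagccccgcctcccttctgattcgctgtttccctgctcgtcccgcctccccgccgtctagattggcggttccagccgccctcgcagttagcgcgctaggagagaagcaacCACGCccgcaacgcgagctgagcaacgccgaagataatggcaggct
Ndufa6: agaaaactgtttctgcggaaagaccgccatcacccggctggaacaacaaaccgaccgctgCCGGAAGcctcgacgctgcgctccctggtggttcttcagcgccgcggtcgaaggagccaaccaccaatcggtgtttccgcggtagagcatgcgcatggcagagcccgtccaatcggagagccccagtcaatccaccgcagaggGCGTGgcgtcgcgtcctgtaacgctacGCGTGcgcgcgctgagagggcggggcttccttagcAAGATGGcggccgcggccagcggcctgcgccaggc
The Cox8b window held TATAAA at 39 bases before the start and no match to the other motifs. The Cox8a window held CCGGAAG on the reverse strand at 57 and 19 bases before the start, and AAGATGG on the reverse strand at 3 bases before it. The Ndufa6 window held CCGGAAG at 190 bases before the start, GCGTG at 47 and 20 bases before it and AAGATGG at base 16 of the transcript. The Atp5if1 window held a single GCGTG on the reverse strand at base 5.

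Promoters of 70 of the 77 genes were found in the RefSeq table. CCGGAAG was in 30.0% of them and in 9.2% of all 27457 promoters of the same length, AAGATGG in 25.7% and 7.3%, and the NRF-1 palindrome in 7.1% and 0.9%. TATAAA was in 11.4% and 14.3%, TGACNNNGC in 12.9% and 12.2%, and GCGTG in 50% and 31.1%. The median GC content was 56.2% in the members' promoters and 52.3% in all, and no correction for it was made. A match is a run of letters and not a measured site.

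Most of these genes were among the more strongly measured of the array. The mean over 20 arrays was above 10 (log2) for 62 of the 77, with a median of 11.26. In each complex the highest mean was that of Ndufab1 (12.28, the acyl carrier protein of complex I), Sdhb (11.49, the iron-sulfur subunit of complex II), Uqcr10 (11.93, a small subunit of complex III), Cox7b (13.22) and Atp5f1b (13.56, the catalytic beta subunit). These are probe set values, and different probes do not rank transcripts. Of the 77, 76 were above 4 on all 20 arrays. The exception was Cox8b, which passed through its 5 BNF arrays alone and so had to differ.

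The 9 genes that failed include isoforms of complex IV subunits that are known from muscle, lung, testis or hypoxic cells. Cox4i2, Cox6a2, Cox6b2, Cox7a1, Cox7b2 and Ndufa4l2 never exceeded 4, the highest single value among them being 3.40 for Ndufa4l2. Cox7a2, the general counterpart of Cox7a1, is not among the 86 genes. The other general counterparts read high in every diet. Their means over 20 arrays were 12.88 for Cox4i1, 12.06 for Cox6a1, 10.77 for Cox6b1, 13.22 for Cox7b and 12.07 for Ndufa4. Ndufaf1 and Ndufaf7, assembly factors of complex I, peaked at 4.14 and 3.29. Ndufb8, a complex I subunit, never exceeded 2.64. The lowest means among genes that passed, apart from Cox8b, were those of Ndufaf5 (4.90) and Ndufaf8 (5.80).

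Replicates were close. The median SD within a group was 0.15 (log2) for control, 0.11 for BNF, 0.13 for D3T and 0.20 for OLT, n = 5 each. Averaged over the genes of a complex, OLT 3 was the lowest array of its group in all 5 complexes and control 4 the lowest control in all 5. OLT 3 also had the smallest interquartile range of all arrays, 3.39, against up to 3.69 in the control and D3T groups.

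**Figure D1:**
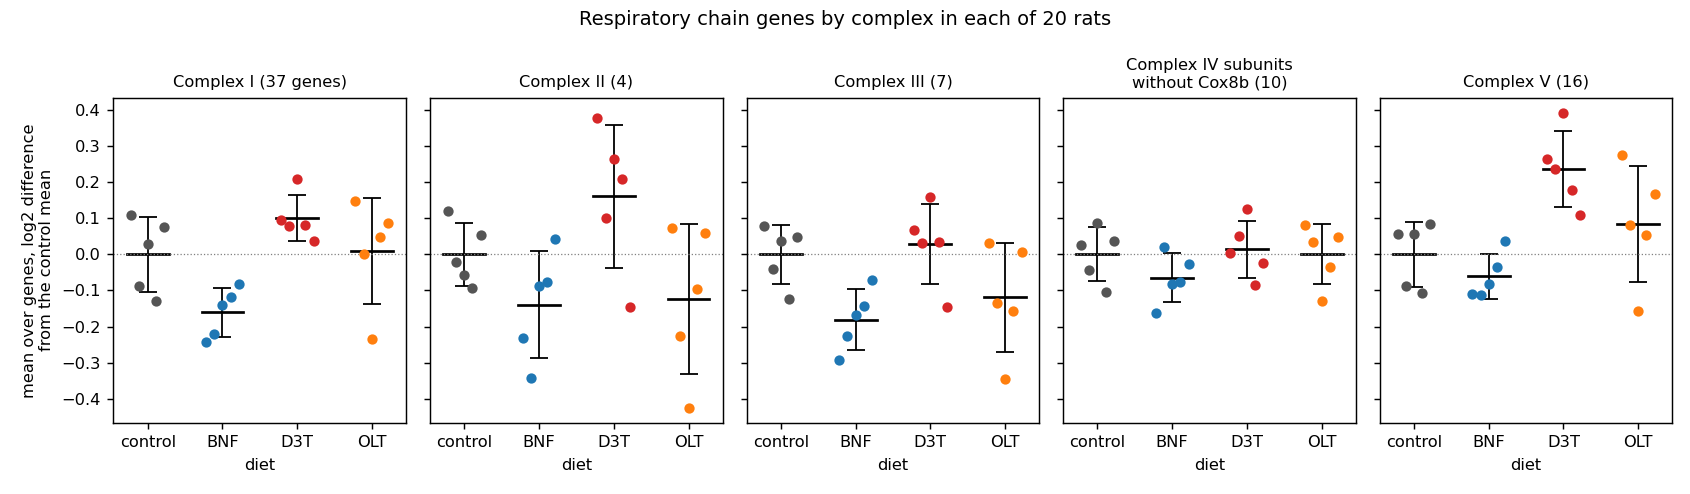
Mean over the genes of each complex in each rat, as the log2 difference from the control mean (vertical axis), by diet (horizontal axis); points are rats, bars the mean and SD of 5. The 5 BNF rats sit between -0.24 and -0.08 in complex I, and the 5 D3T rats between 0.11 and 0.39 in complex V, where the highest control is at 0.08.

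Averaged by complex, the D3T group had the highest mean and the BNF group the lowest in all 5 complexes, with Cox8b left out of complex IV. D3T stood furthest above control in complex V, and BNF furthest below it in complexes III and I. Against the control mean, the 37 complex I genes averaged -0.16 ± 0.07 on BNF, 0.10 ± 0.06 on D3T and 0.01 ± 0.15 on OLT (log2, mean ± SD, n = 5 rats each). The controls themselves ran from -0.13 to 0.11, so the BNF rats (-0.24 to -0.08) overlapped them. The 7 complex III genes averaged -0.18 ± 0.08 on BNF, 0.03 ± 0.11 on D3T and -0.12 ± 0.15 on OLT. The 16 complex V genes averaged -0.06 ± 0.06 on BNF, 0.23 ± 0.11 on D3T and 0.08 ± 0.16 on OLT. All 5 D3T rats (0.11 to 0.39) lay above all 5 controls (-0.11 to 0.08), while the OLT rats (-0.16 to 0.28) spanned the control range. Without Atp5if1 the other 15 genes averaged 0.16 ± 0.09 on D3T, and the lowest D3T rat (0.074) stood just above the highest control (0.071).

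Complexes II and IV moved less clearly. The 4 complex II genes averaged -0.14 ± 0.15 on BNF, 0.16 ± 0.20 on D3T and -0.12 ± 0.21 on OLT. Within the D3T group the array labelled D3T 5 read -0.15 there and the other 4 read between 0.10 and 0.38. The 10 complex IV subunits other than Cox8b averaged -0.07 ± 0.07 on BNF, 0.01 ± 0.08 on D3T and -0.00 ± 0.08 on OLT, with ranges that overlapped the control range of -0.11 to 0.09.

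Part of these levels depends on how arrays are scaled, and so do counts of called members. Those counts are given below mostly without the share of all genes in the same setting. They do not show whether the members moved more than other genes. Centring each array on its median moved the median of all tested probe sets by 0.15 in D3T minus control, by 0.17 in OLT minus control and by -0.10 in BNF minus OLT. The complex V mean on D3T was 0.38 after centring and 0.22 after a further quantile normalization, and complex I on BNF was -0.09 and -0.08. After quantile normalization the lowest D3T rat in complex V (0.083) lay below the highest control (0.090), so the groups overlapped. Signs turned for complex V on BNF (0.01 under both), for complex IV on BNF (0.00 after centring) and on D3T (-0.01 after quantile normalization), and for complexes II, III and IV on OLT (0.04, 0.05 and 0.17 after centring, and 0.04 in complex IV after quantile normalization).

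The comparison of BNF with control asks how an AhR ligand changes the genes of the chain. Of the 77 genes 4 were called (limma, adjusted p under 0.05), against 4.17% of all genes. Cox8b was higher (1.77% of all genes were), and Ndufa6, Atp5mc3 and Uqcrh were lower (2.4% of all genes were). The median difference was -0.11, beside -0.06 over all genes, and 64 of 77 lay below 0. After centring Cox8b alone was called, and after quantile normalization 2 genes were lower beside it. The count, Cox8b included, was 2 without control 3, without control 5, without BNF 1 or without BNF 2.

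Cox8b is the heart and muscle isoform of a small subunit of cytochrome c oxidase. It read 6.19, 6.08, 7.60, 6.79 and 7.28 on the 5 BNF arrays. The controls read 2.94, 2.94, 2.99, 3.05 and 2.96, the D3T arrays between 2.94 and 3.08 and the OLT arrays between 2.76 and 3.07. All BNF arrays thus stood far above a background level shared by the other 15. The difference from control was 3.81 (SE 0.20, 95% interval 3.39 to 4.24), and its size rests on the background that GCRMA leaves. It is given as a description, for the reason stated above.

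The general isoform Cox8a did not follow: BNF minus control was -0.08 (interval -0.28 to 0.13, adjusted p = 0.834). The other muscle-type isoforms stayed at background on BNF, with BNF means of 2.05 for Cox4i2, 1.75 for Cox6a2 and 2.26 for Cox7a1. Of 7 muscle markers 6 were on the array and none passed, with no BNF value above 3.3. Ucp1 and Cidea, which mark brown fat together with Cox8b, were also at background on BNF (means 2.31 and 1.95). Of the genes next to Cox8b in the GRCr8 order, Psmd13 gave -0.40 (SE 0.16, adjusted p = 0.189) and Sirt3 -0.11 (SE 0.20, adjusted p = 0.907), and Nlrp6 failed the filter. These neighbours and Cidea were looked up after the Cox8b values had been seen.

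**Figure D2:**
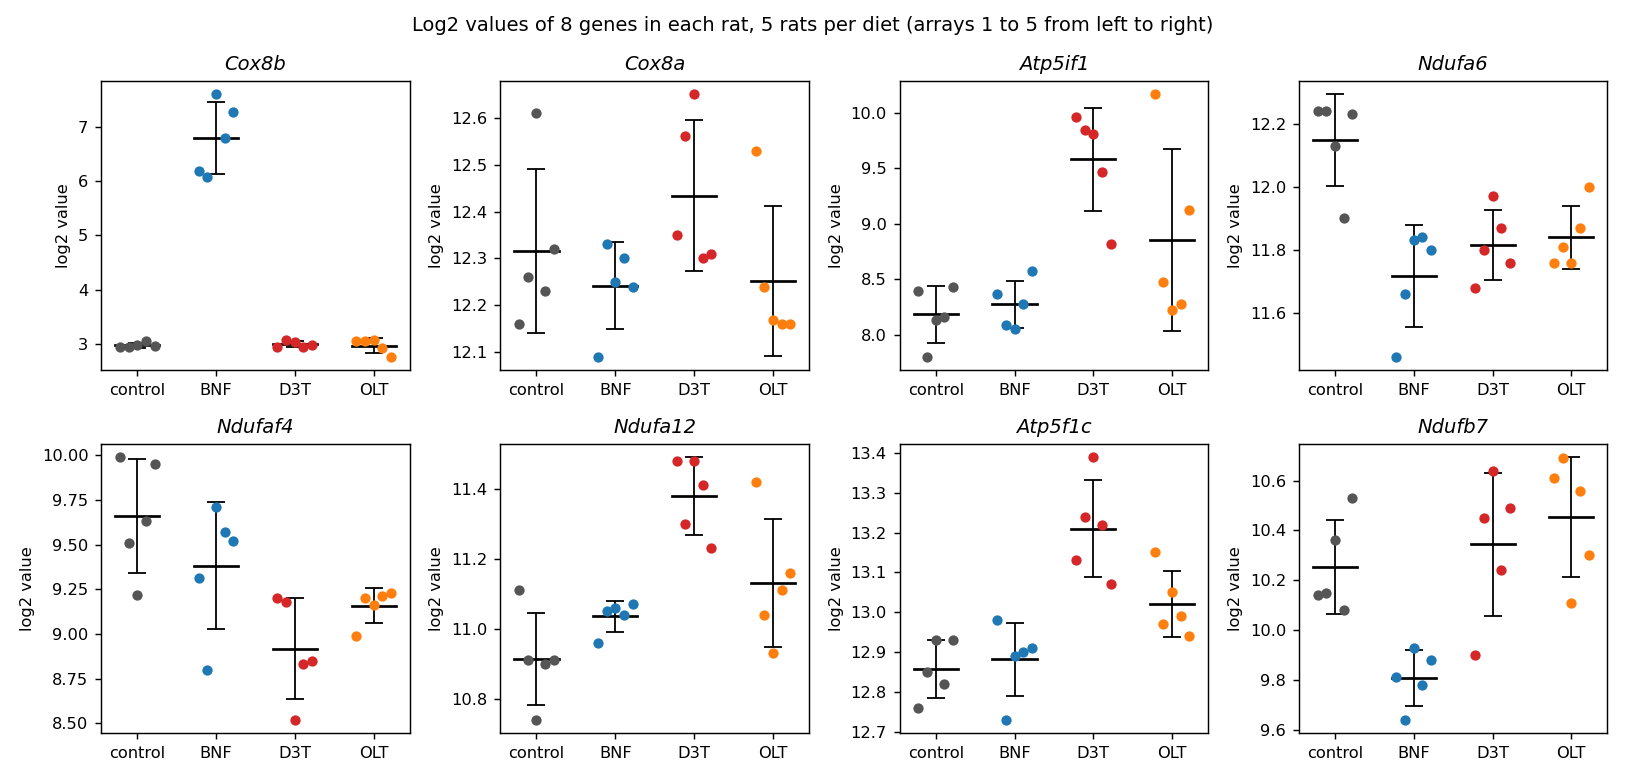
Log2 values (vertical axes) of 8 genes in each rat by diet (horizontal axes), with arrays 1 to 5 from left to right in a group and bars for the mean and SD of 5. Cox8b is near 3 in 15 rats and between 6.08 and 7.60 in the 5 BNF rats, and Atp5if1 is between 8.82 and 9.96 in the D3T rats.

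Ndufa6, a LYR-motif subunit of the matrix arm of complex I that binds the acyl carrier protein, was the only member called in all 3 comparisons with control. The controls read 12.24, 12.24, 12.13, 11.90 and 12.23. The BNF arrays read 11.46, 11.66, 11.83, 11.84 and 11.80, all below the lowest control. D3T arrays read between 11.68 and 11.97 and OLT arrays between 11.76 and 12, both overlapping control 4 alone. The differences from control were -0.43 on BNF (SE 0.09, adjusted p = 0.0104), -0.33 on D3T (SE 0.09, adjusted p = 0.0225) and -0.31 on OLT (SE 0.09, adjusted p = 0.0468). The 3 comparisons share their controls. After centring none of the 3 was called, and over all settings tried the highest adjusted p was 0.0839 on BNF, 0.293 on D3T and 0.413 on OLT. Its partner Ndufab1 gave -0.13, -0.17 and -0.05 and was not called.

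Atp5mc3 encodes the c-ring subunit of ATP synthase and is the only Atp5mc gene among the 86. It read between 13.07 and 13.22 on BNF and between 13.38 and 13.60 on the controls, without overlap (difference -0.31, SE 0.07, adjusted p = 0.0224). Uqcrh, the hinge protein of complex III, read between 11.13 and 11.38 on BNF and between 11.43 and 11.64 on the controls (difference -0.30, SE 0.08, adjusted p = 0.0497). Both calls were lost after centring, without the intensity trend and when single arrays were left out. Atp5f1d, the delta subunit of the F1 head, had the largest decrease in size, -0.45 (SE 0.13), with groups that did not overlap. It missed the threshold with all arrays (adjusted p = 0.0626) and was called without D3T 5 and OLT 1 (SE 0.12, adjusted p = 0.0375). The largest decrease in complex I was of Ndufb7, -0.44 (SE 0.14, adjusted p = 0.0928). In complex II all 4 differences lay between -0.20 (Sdhb) and -0.06 (Sdha), in complex III between -0.30 (Uqcrh) and 0.07 (Uqcr10), and in complex IV, without Cox8b, the lowest was -0.14 (Cox6b1).

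Some markers of other liver cells were higher on BNF: 4 of 7 stellate cell and fibroblast markers, 2 of 11 macrophage markers and 1 of 3 lymphocyte markers that passed, and none of 6 endothelial markers or of the 1 cholangiocyte marker. The summed level of 10 stellate cell and fibroblast markers, of which 7 passed, ran from 11.66 to 12.46 on BNF and from 10.66 to 11.29 on control. For 12 macrophage markers, of which 11 were on the array, it ran from 12.33 to 13.47 and from 11.61 to 12.41. Of 9 lymphocyte markers 7 were on the array and 3 passed, while Cd3d, Cd8a, Nkg7 and Gzmb failed. The sum over the 7 ran from 11.55 to 12.35 on BNF and from 10.06 to 11.20 on control. The highest single value among them was 12.28 on BNF and 11.12 on control, so single probe sets make up most of that sum. Endothelial markers ran from 10.19 to 11.02 on BNF and from 9.86 to 10.66 on control, and cholangiocyte markers from 6.28 to 7.47 and from 6.29 to 7.50. Of all genes 1.77% were called higher on BNF. Of 7 hepatocyte markers 1 was called higher on BNF. The summed level of the hepatocyte markers ran from 17.86 to 18.05 on BNF, inside the control range of 17.57 to 18.07. The part of these cells in the BNF differences was not tested.

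D3T against control is the comparison for a dithiolethione. Of the 77 genes 8 were called, against 13.1% of all genes, so the share called was no higher among the respiratory chain genes. Those higher were Atp5if1, Atp5f1e, Atp5po and Atp5f1c of complex V and Ndufa12 and Ndufa11 of complex I, and those lower were Ndufaf4 and Ndufa6. The 4 genes of complex V were out of 16, beside 5.6% of all genes called higher. The median over the 77 was 0.12, beside -0.02 over all genes, and 56 lay above 0. After centring, which moved the median of all tested probe sets by 0.15, 18 were higher and 1 lower. After quantile normalization 11 were higher and 4 lower. Without D3T 5 and OLT 1, 7 were higher and 2 lower (8.42% of all genes were lower), with all 8 calls kept and Ndufb2 added. The count was 4 without control 2, 5 without control 4 and 14 without OLT 3. Atp5if1, Atp5f1c, Ndufa12 and Ndufaf4 were called under every setting and with every array left out, while Atp5f1e, Atp5po, Ndufa11 and Ndufa6 each lost the call without 1 or more single arrays, control 2 among them.

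Atp5if1 encodes the inhibitor that blocks ATP hydrolysis by ATP synthase when the proton gradient fails. It read 9.96, 9.85, 9.81, 9.47 and 8.82 on D3T arrays 1 to 5, and 8.40, 7.80, 8.13, 8.16 and 8.43 on the controls. The groups did not overlap, and D3T 5 was the lowest of its group. The difference was 1.40 (SE 0.30, adjusted p = 0.00473), 2.64-fold, and 1.59 (SE 0.19) without D3T 5 and OLT 1. On OLT the array labelled OLT 1 read 10.17 and the others 8.48, 8.22, 8.28 and 9.13. BNF arrays read between 8.05 and 8.58, inside or close to the control range.

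The 3 called subunits of complex V belong to the F1 head and its stalks. Atp5f1c, the gamma subunit of the rotor, read between 13.07 and 13.39 on D3T and between 12.76 and 12.93 on control (difference 0.35, SE 0.07, adjusted p = 0.00282). Atp5po, the stalk subunit known as OSCP, read between 11.53 and 11.82 on D3T and between 11.11 and 11.42 on control (difference 0.36, SE 0.10, adjusted p = 0.0214). Atp5f1e, the epsilon subunit, gave 12.01, 12.64, 12.71, 12.27 and 12.35 on D3T. Its controls reached 12.10, so that D3T 1 lay inside the control range (difference 0.53, SE 0.16, adjusted p = 0.0326). The catalytic beta subunit Atp5f1b gave 0.12 (SE 0.09, adjusted p = 0.436), and Atp5mc3 was the lowest of the complex at -0.20 (SE 0.07, adjusted p = 0.0922).

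In complex I, Ndufa12, an accessory subunit of the arm that binds NADH, read between 11.23 and 11.48 on D3T and between 10.74 and 11.11 on control (difference 0.47, SE 0.09, adjusted p = 0.0027). Ndufa11, an accessory subunit of the membrane arm, read between 11.78 and 11.88 on D3T, above all controls (11.18 to 11.72; difference 0.42, SE 0.11, adjusted p = 0.0185). The assembly factor Ndufaf4 fell. It read 9.20, 9.18, 8.52, 8.83 and 8.85 on D3T and 9.99, 9.51, 9.22, 9.63 and 9.95 on the controls, a difference of -0.74 (SE 0.18, adjusted p = 0.00987), without overlap. OLT arrays read between 8.99 and 9.23 (difference -0.50, SE 0.18, adjusted p = 0.0949).

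No gene of complexes II, III or IV was called on D3T. Differences ran from 0.06 (Sdhd) to 0.26 (Sdha) in complex II, from -0.29 (Uqcrfs1, the Rieske protein) to 0.35 (Uqcrq) in complex III, and from -0.40 (Cox5a) to 0.21 (Cox5b) in complex IV. Cox5a read 8.49, 8.91, 8.28, 8.48 and 8.57 on D3T and between 8.86 and 9.08 on control, so that D3T 2 alone overlapped (adjusted p = 0.0837). The mitochondrially encoded COX1 and COX2, looked up later, gave -0.10 (SE 0.27) and 0.21 (SE 0.12) and were called in no comparison. Of 5 erythrocyte markers 4 were on the array and summed to between 13.51 and 14.36 on D3T, against 12.12 to 13.57 on control. The 2 that passed were higher on D3T: Hbb by 1.0 (SE 0.27, adjusted p = 0.0212) and Alas2, the erythroid enzyme of heme synthesis, by 1.93 (SE 0.40, adjusted p = 0.00405). Their part in the D3T differences was not tested.

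**Figure D3:**
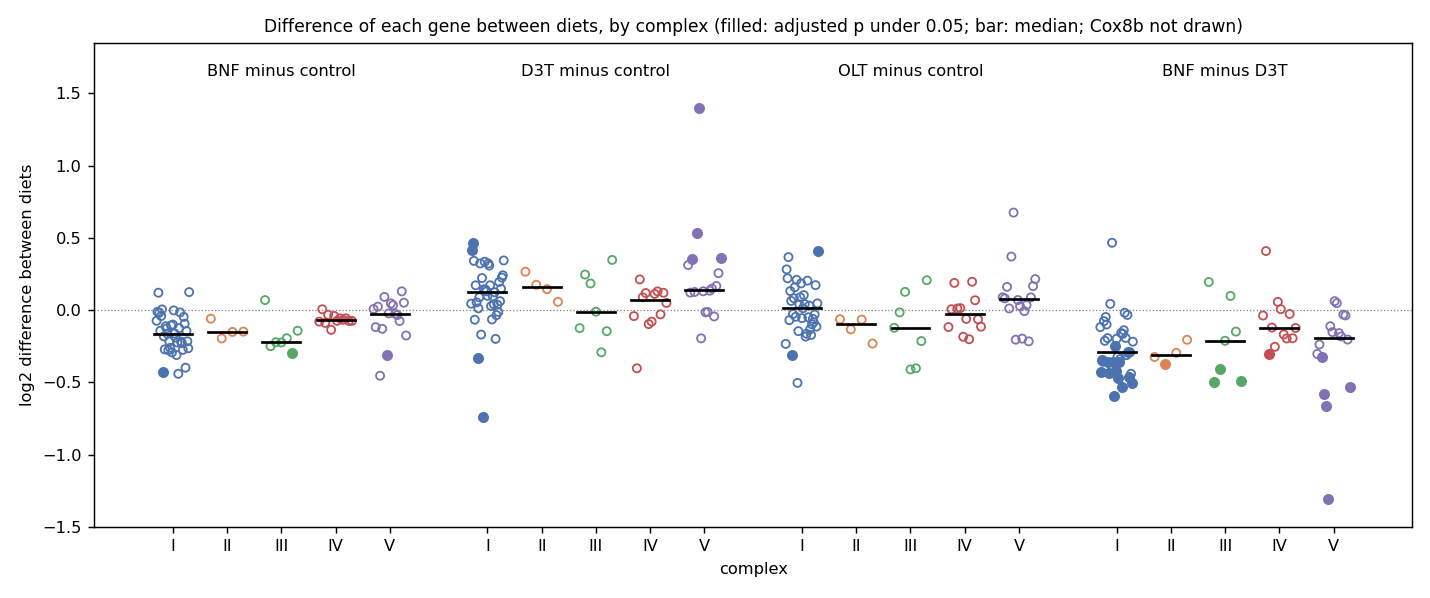
Difference of each of 76 genes between diets (vertical axis, log2) by complex (horizontal axis) in 4 comparisons; filled points have an adjusted p under 0.05, bars are medians, and Cox8b is left out. Filled points number 3 in BNF minus control, 8 in D3T minus control, 2 in OLT minus control and 24 in BNF minus D3T.

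OLT, the substituted dithiolethione, was compared with control in the same way. Of the 77 genes 2 were called, against 7.5% of all genes, and the median was 0.01, beside -0.05 over all genes. Besides Ndufa6, this was Ndufv3, a small accessory subunit of the NADH-binding module, which read 10.72, 10.68, 10.26, 10.35 and 10.51 on OLT. The controls read between 9.92 and 10.22, so the groups did not overlap (difference 0.41, SE 0.11, adjusted p = 0.0389). A second, dimmer probe set of Ndufv3 gave 0.29 (adjusted p = 0.336). Neither call remained without D3T 5 and OLT 1, nor without control 1, control 2, control 5, OLT 1 or OLT 2 singly. The count was 1 when any of 10 other single arrays was left out, and 4 without OLT 5. After centring 4 were higher and none lower, and after quantile normalization 6 and 3. Hbb and Alas2 were higher on OLT too, by 1.10 (SE 0.27) and 1.84 (SE 0.40); their part was not tested.

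At an unadjusted p under 0.05 there were 17 of 77 OLT differences. The share of all genes at that threshold was not computed, so the count is no result about these genes in particular. In complex V the differences ran from -0.22 (Atp5pb) to 0.67 (Atp5if1, SE 0.30, adjusted p = 0.187), the latter raised by OLT 1, since without D3T 5 and OLT 1 it was 0.35 (SE 0.19). Complex III held the lowest subunit value, -0.41 for the core subunit Uqcrc2 (SE 0.18, adjusted p = 0.176), followed by Uqcrfs1 (-0.40, adjusted p = 0.0904). All 4 genes of complex II were below 0, from -0.23 (Sdhd) to -0.06 (Sdha), and complex IV ran from -0.20 (Cox7a2l, a factor that joins complexes into supercomplexes) to 0.20 (Cox7b).

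OLT against D3T gave no called member (limma), nor any call among all genes (0%). At an unadjusted p under 0.05 there were 15 of 77, a count with no share of all genes beside it. The median was -0.10, beside -0.04 over all genes. Atp5if1 had the lowest difference, -0.72 (interval -1.35 to -0.10), and Cox5a the highest, 0.41 (interval 0.10 to 0.72). For Sdhb the interval was -0.52 to -0.10 and for Cox7a2l -0.52 to -0.11. These intervals are not adjusted for the number of genes, and Atp5if1 and Cox5a are the extremes of 77. The intervals show neither a difference nor equal levels. Without D3T 5 and OLT 1, 6 members were lower on OLT and none higher, against 2.88% of all genes lower: Atp5if1 (-1.24, SE 0.20, adjusted p = 0.0013), Sdhb (-0.41), Cox7a2l (-0.39), Ndufs6 (-0.36), Ndufa12 (-0.35) and Atp5f1c (-0.26). Both arrays were picked for resembling the other group in these same values. Leaving them out pulls D3T and OLT apart by construction, so these calls do not test the difference. With OLT 1 alone left out the count was 1.

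BNF and D3T were furthest apart. Of the 77 genes 25 were called, against 17.6% of all genes. Of these 24 were lower on BNF, against 10.8% of all genes, and Cox8b was higher, against 6.78%. The median was -0.21, beside -0.03 over all genes, and 67 of 77 lay below 0. By complex, those lower were 14 of 37 in I, 1 of 4 in II, 3 of 7 in III, 1 of 13 in IV and 5 of 16 in V. After quantile normalization 4 were higher and 21 lower. Without D3T 5 and OLT 1, 1 was higher and 27 lower (10.3% of all genes were lower). Ndufaf5 was then lost, and Ndufa3, Ndufb2, Ndufv1 and Sdhc were added. Of the 24, 14 were called lower under every setting tried and with every single array left out. The count of 25 fell to 16 without BNF 1. Macrophage markers summed to between 11.14 and 12.29 on D3T and stellate cell markers to between 10.84 and 11.38, both below every BNF array. Of the markers that passed, 8 of 11 macrophage, 4 of 7 stellate cell and 2 of 3 lymphocyte markers were called higher in BNF minus D3T. Of 7 hepatocyte markers 1 was called higher as well. The part of these cells in the BNF minus D3T differences was not tested.

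**Figure D4:**
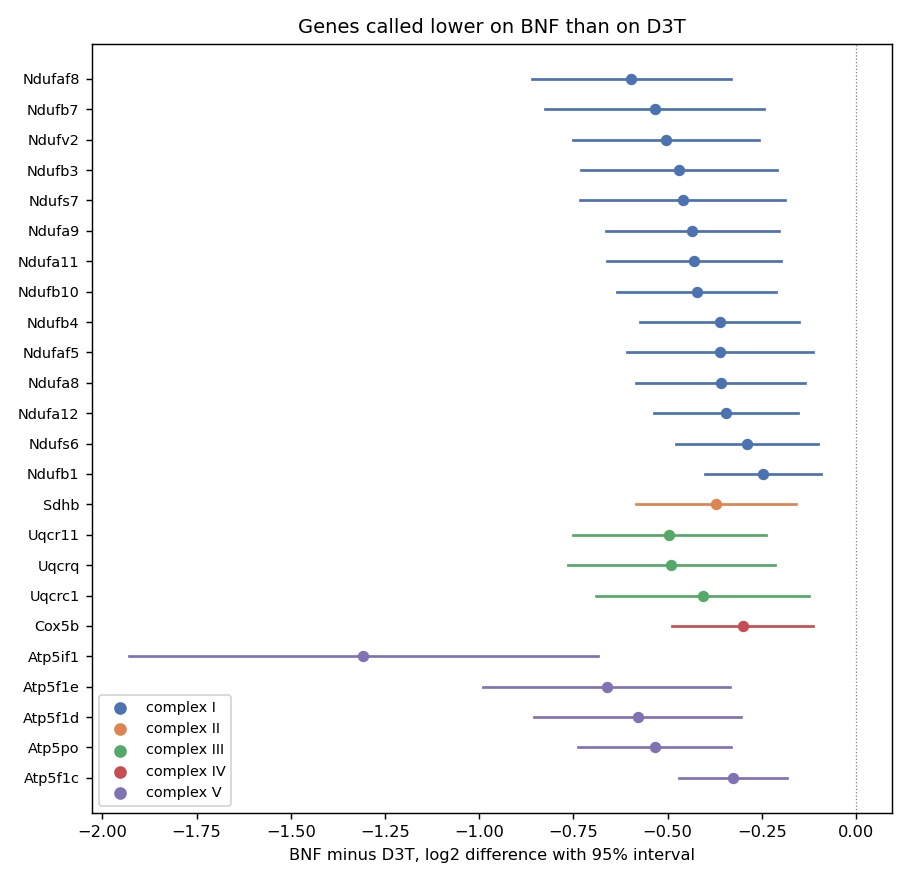
BNF minus D3T (horizontal axis, log2 difference with 95% interval) for the 24 genes called lower on BNF, listed by complex (vertical axis). Atp5if1 is at -1.31, and the other genes lie between -0.66 and -0.25.

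The 14 genes of complex I were 12 subunits and 2 assembly factors. Ndufv2, an iron-sulfur subunit of the NADH-binding module, read between 11.04 and 11.50 on BNF and between 11.68 and 11.93 on D3T (difference -0.50, SE 0.12, adjusted p = 0.00695). Ndufs7, which carries the last iron-sulfur cluster before ubiquinone, read between 10.20 and 10.50 and between 10.73 and 11.07 (difference -0.46, SE 0.13, adjusted p = 0.0216). Ndufb7 of the membrane arm gave the largest difference of a complex I subunit, -0.53 (SE 0.14, adjusted p = 0.0135), with D3T 1 at 9.90 inside the BNF range and the other 4 D3T arrays above it.

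Of the assembly factors, Ndufaf8 was lower on BNF by -0.60 (SE 0.13, adjusted p = 0.0035) and Ndufaf5, the enzyme that modifies Ndufs7, by -0.36 (SE 0.12, adjusted p = 0.0455). Ndufaf4 went the other way, at 0.47 (SE 0.18, adjusted p = 0.0845), and was not called. Ndufa8, Ndufa9, Ndufa11, Ndufa12, Ndufb1, Ndufb3, Ndufb4, Ndufb10 and Ndufs6 completed the 14, with differences between -0.47 (Ndufb3) and -0.25 (Ndufb1).

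Outside complex I, Uqcr11, Uqcrq and the core subunit Uqcrc1 were lower in complex III, by -0.50 (SE 0.12, adjusted p = 0.00986), -0.49 (SE 0.13, adjusted p = 0.0156) and -0.41 (SE 0.13, adjusted p = 0.0486). Uqcr11 read between 10.90 and 11.26 on BNF and between 11.31 and 11.85 on D3T. Sdhb was lower by -0.37 (SE 0.10, adjusted p = 0.0176) and Cox5b by -0.30 (SE 0.09, adjusted p = 0.0285). In complex V the 5 were Atp5if1 (-1.31), Atp5f1e (-0.66), Atp5f1d (-0.58), Atp5po (-0.53) and Atp5f1c (-0.33).

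These distances were made up differently from gene to gene. For Atp5f1c the BNF mean was 12.88 ± 0.09 and the control mean 12.86 ± 0.07 (SD, n = 5), and the D3T mean stood apart at 13.21 ± 0.12. For Atp5f1d it was the BNF mean that stood apart, 10.87 ± 0.13 against 11.33 ± 0.15 on control and 11.45 ± 0.20 on D3T. For Ndufv2 control (11.58 ± 0.19) lay between BNF (11.32 ± 0.20) and D3T (11.82 ± 0.09).

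BNF against OLT gave 7 called members, against 11.7% of all genes. Cox8b was higher (6.41% of all genes were) and 6 were lower (5.28% of all genes were): Ndufb7 (-0.64, SE 0.14, adjusted p = 0.00609), Ndufb10 (-0.48, SE 0.10, adjusted p = 0.00519), Atp5f1e (-0.50), Atp5f1d (-0.47), Atp5po (-0.39) and Ndufa8 (-0.35). Ndufb10, a subunit of the membrane arm, read between 10.07 and 10.43 on BNF and between 10.52 and 10.82 on OLT. The median was -0.09, beside -0.01 over all genes. Without D3T 5 and OLT 1, Ndufb7, Ndufb10 and Atp5po remained lower and the count was 4, as it was without BNF 1, OLT 1 or OLT 2 singly. After centring 1 was higher and 10 lower, after quantile normalization 2 and 10, and without OLT 3 the count was 15. Of the markers that passed, 11 of 11 macrophage (median 1.48) and 4 of 7 stellate cell markers were called higher in BNF minus OLT. So were 2 of 3 lymphocyte and 1 of 7 hepatocyte markers. The part of these cells in the BNF minus OLT differences was not tested.

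**Figure D5:**
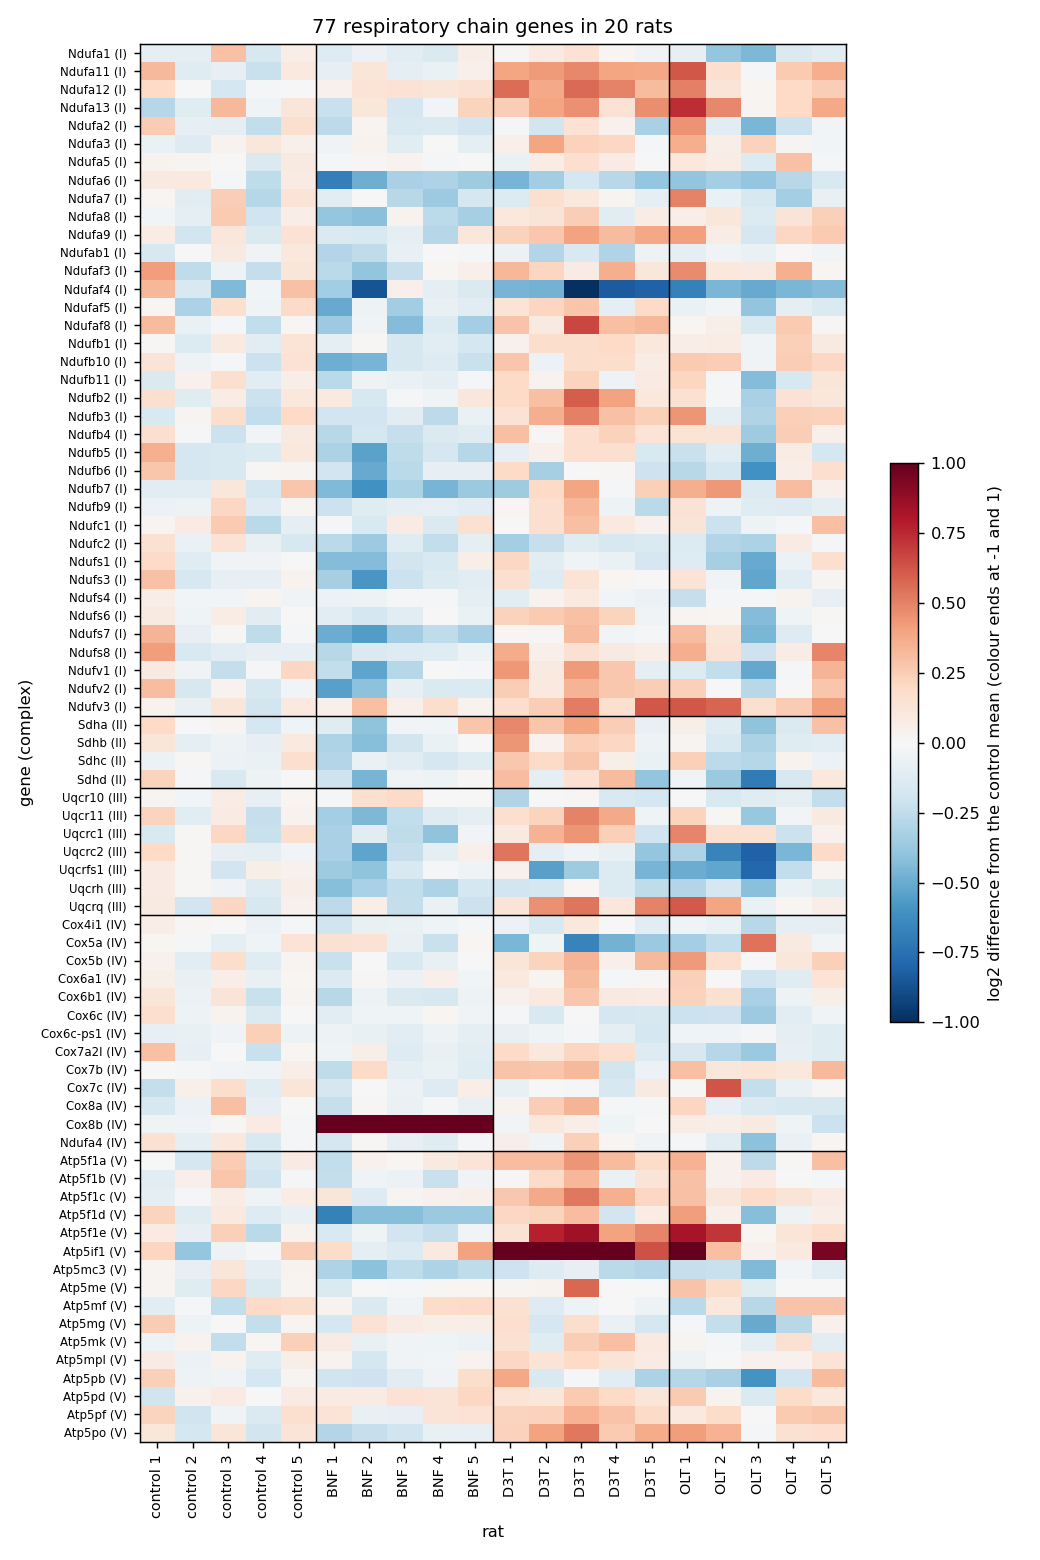
Log2 difference from the control mean (colour, ending at -1 and 1) of the 77 genes (vertical axis, by complex) in 20 rats (horizontal axis). Cox8b is red in the 5 BNF rats alone, Ndufaf4 is blue in all D3T and OLT rats, and Atp5if1 is darkest in D3T 1 to 4, OLT 1 and OLT 5.

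Any difference among the 4 diets was called for 21 of the 77 genes by limma's F-test, against 21.4% of all genes: 10 of 37 in complex I, 1 of 4 in II, 2 of 7 in III, 2 of 13 in IV and 6 of 16 in V. Cox8b, which had to differ, is in this count and in that of complex IV. The count was 12 without BNF 1 and 13 without D3T 3.

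Genes that serve the chain without being taken by the rule were read from lists. Of 17 genes of mitochondrial biogenesis, 2 were called lower than control on each diet and none higher, beside 2.4% of all genes lower on BNF, 7.45% on D3T and 5.58% on OLT. Esrra, the nuclear receptor ERR alpha that drives respiratory genes, was lower on BNF by -0.83 (SE 0.14, adjusted p = 0.00168), on D3T by -1.02 (SE 0.14) and on OLT by -0.57 (SE 0.14, adjusted p = 0.0181), comparisons that share their controls. Pprc1, a coactivator of the PGC-1 family, was lower on D3T by -1.39 (SE 0.26) and on OLT by -1.10 (SE 0.26), and Polg2, the accessory subunit of the mitochondrial DNA polymerase, on BNF by -0.77 (SE 0.20). Ppargc1a was not called in any comparison, with a control SD of 0.91.

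Of 73 mitochondrial ribosome genes none was called on BNF against control, while on D3T 4 were higher, led by Mrpl23 (0.80, SE 0.10), and 3 lower, led by Mrpl47 (-0.89, SE 0.27), beside 5.6% of all genes higher and 7.45% lower. On OLT 2 were higher, Mrpl39 (0.49, SE 0.14) and Mrpl23 (0.48, SE 0.10), beside 1.93% of all genes. In BNF minus D3T 15 were lower and 1 higher, with a median of -0.19, beside 10.8% of all genes lower. In BNF minus OLT 12 were lower and none higher, with a median of -0.19, beside 5.28% of all genes lower. Of 15 carriers and feeders of the chain, Prodh, proline dehydrogenase, was lower on BNF by -1.25 (SE 0.16), beside 2.4% of all genes lower. Coq8a and Chdh, of ubiquinone synthesis and choline oxidation, were higher on D3T by 0.84 (SE 0.23) and 0.86 (SE 0.20). Cyc1, the cytochrome c1 of complex III, whose symbol the rule does not take, was lower in BNF minus D3T by -0.39 (SE 0.08, adjusted p = 0.00297).

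A few assembly genes were called on D3T, beside 5.6% of all genes higher and 7.45% lower. For the calls below on other diets, 2.4% of all genes were lower on BNF. On OLT 1.93% of all genes were higher and 5.58% lower. Of 9 for complex I outside the rule, Timmdc1 (0.50, SE 0.12) and Lyrm2 (0.61, SE 0.19) were higher. Of 29 for complexes II to IV, Pet100 (0.86, SE 0.19) and Uqcc2 (0.53, SE 0.13) were higher, and Hccs (-0.67, SE 0.21), which attaches heme to cytochromes c, and Higd1a (-0.63, SE 0.14) were lower. On OLT Uqcc2 alone was higher (0.56, SE 0.13). Of 19 import genes, 4 were lower on D3T, Timm9 (-0.57, SE 0.14), Tomm20 (-0.55, SE 0.16), Timm8a1 and Hspe1, while Timm9 was lower on BNF (-0.53, SE 0.14) and Timm8a1 on OLT (-0.52, SE 0.14). Of 15 genes of the tricarboxylic acid cycle, Pdha1 was higher on D3T by 0.65 (SE 0.16), Suclg1 was lower on D3T by -0.48 (SE 0.14) and on OLT by -0.54 (SE 0.14), and Mdh2 was lower on BNF by -0.39 (SE 0.09). No gene was called against control among 9 of ATP synthase assembly or among 7 of uncoupling and mitochondrial redox.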

How the data were processed

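Liver RNA of 20 rats was measured on Affymetrix rat expression arrays, 1 array per rat. The deposited series table gives log2 values per probe set; per the submitters' processing notes they were summarised with GCRMA, whose version is not given in the sources used here. Of its 31042 probe sets 12947 had a log2 value above 4 on at least 5 arrays and were tested. Gene names came from the platform annotation: 20826 probe sets have 1 gene symbol, 436 several and 9780 none, and those with several named no gene (7 such matched the symbol rule).

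All 20 arrays entered 1 limma fit (limma 3.58.1 in R 4.3.3; lmFit, eBayes with intensity trend, a mean per diet, two-sided). P-values were adjusted by Benjamini-Hochberg over all tested probe sets, and a gene was called at an adjusted p under 0.05. Groups were called overlapping from the lowest and highest array of each. The fit was checked on simulated data. GCRMA shrinks low values to a common background, so a difference from that level depends on the correction.

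The members and the lists were chosen with earlier results of these data known. Named with values were members called against control or in OLT minus D3T, the highest mean and the lowest and highest difference per complex, isoform pairs, genes that failed the filter or passed with the lowest means, and up to 3 called genes of each further list with the largest differences. Members called in BNF against D3T or OLT, COX1 and COX2, and the neighbours of Cox8b were named after their values were seen. Replicate numbers were not taken to pair the samples, and the labels do not say whether they do. Over 30 same-numbered pairs across diets the correlation of deviations ran from -0.27 to 0.30, with 11 over 0.1. Its median was 0.06, against -0.03 for pairs with different numbers. Alternatives were median centring, quantile normalization, no or a stricter filter (log2 above 6), no trend, a robust prior, array weights, fits of the compared groups alone, a replicate block, averaged probe sets, the interquartile range of arrays as a covariate, updated symbols, subunits only, and leaving out arrays. Promoters came from RefSeq (GRCr8), matched by gene identifier.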

Additional observations from a re-analysis of the deposited data

Results flagged for a closer look

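For the genes named by rule that passed the filter, and for the means of gene sets, the 5 arrays of each diet were searched for a single array that lay far from the other 4, which chance gives in about 1 of 20 groups; 6 of 164 groups had one. Atp5f1d read 10.65 on BNF 1 and between 10.90 and 10.96 on the other BNF arrays. OLT 3 read low for 2 genes of complex IV: Cox4i1 at 12.67, against 12.84 to 12.90 on the other OLT arrays, and Ndufa4 at 11.69, against 12 to 12.12. OLT 1, the array that resembled the D3T group, read 12.53 for Cox8a, against 12.16 to 12.24. Cox6b1 read 11.04 on D3T 3, against 10.81 to 10.87, and Uqcrfs1 read 11 on control 3, against 11.20 to 11.27.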

How the results depend on the processing

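Of 43 called results of single members, those of Cox8b left out, 21 kept their call under every alternative and with every array left out, and none reversed. Counts of members called are given here without the share of all genes in each setting. They do not show whether the members moved more than other genes. Cox8b is in every count of a BNF comparison and in those for any diet. The counts moved as follows, with causes not tested beyond the settings' own construction. Against control, BNF gave 1 after centring and 2 without the trend; D3T gave 19 after centring, 15 after quantile normalization, 25 with array weights and 15 with the interquartile range as a covariate; OLT gave 4, 9, 12 and 1 under those settings, 0 without a filter, 1 without the trend, 0 with only the compared groups, 1 with averaged probe sets and 0 without D3T 5 and OLT 1. BNF minus D3T gave 42 with array weights. BNF minus OLT gave 11 after centring, 12 after quantile normalization, 4 without a filter, 21 with array weights, 4 with only the compared groups, 4 without D3T 5 and OLT 1 and 11 with the interquartile range. OLT minus D3T gave 6 without those arrays, which were picked for resembling the other group. Any diet gave 13 without a filter and 48 with array weights. The labels do not say whether replicate numbers pair the samples, and 2 of 20 arrays lay closest to their own number. With the replicate block the counts against control were 2 for BNF, 8 for D3T and 0 for OLT. They were 21 for BNF minus D3T, 6 for BNF minus OLT, 0 for OLT minus D3T and 15 for any diet. Leaving out single arrays gave 2 to 5 for BNF, 4 to 14 for D3T and 0 to 4 for OLT against control, 16 to 31 for BNF minus D3T, 4 to 15 for BNF minus OLT, 0 to 1 for OLT minus D3T and 12 to 27 for any diet. The median over members was -0.14 to -0.03 in BNF minus control, 0.07 to 0.27 in D3T minus control, -0.02 to 0.17 in OLT minus control and -0.29 to -0.14 in BNF minus D3T.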
